A study of Mus musculus with 11 samples.

Results

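Striatal projection neurons are marked by a small set of genes, and 9 of the 55401 genes measured here were followed by their symbols: Drd1, Drd2, Adora2a, Ppp1r1b, Rgs9, Penk, Tac1, Pde10a and Scn4b. The samples are hippocampi of 11 female F1 mice, each giving 1 library of polyadenylated RNA. The mice came from reciprocal crosses of BL6 (C57BL/6, the common laboratory strain) and CAST (Mus musculus castaneus, a wild-derived strain). Each autosomal gene is thus present as a BL6 and a CAST copy in every mouse, and reads that span a sequence difference between the strains can be assigned to a copy. The old mice were 101 to 104 weeks of age by their labels (n = 5) and the young mice 8 to 9 weeks (n = 6). A BL6 mother and CAST father had produced old replicates 1, 2 and 5 and young replicates 3, 4 and 6, and a CAST mother and BL6 father the other 2 old and 3 young mice. The labels name no transgene and no agent. The file headers write i4fb for the copy that is read here as BL6, so the BL6 parent may be a line with a name of its own. The series asked how age bears on imprinting and X inactivation, and these genes were not among its stated aims.

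Projection neurons make up most of the striatum, a forebrain nucleus in front of the hippocampus. Those of the direct pathway carry the D1 dopamine receptor (Drd1) and make substance P from Tac1. Those of the indirect pathway carry the D2 dopamine receptor (Drd2) and the adenosine receptor Adora2a and make enkephalin from Penk. D1 and this adenosine receptor raise cyclic AMP and D2 receptors lower it, and in both classes the signal is read by DARPP-32 (Ppp1r1b), ended by the phosphodiesterase Pde10a and shaped by the G-protein regulator Rgs9. Scn4b, a sodium channel beta subunit, is also rich in these cells. Hippocampal neurons make some of these RNAs too, among them Penk and the dopamine receptors, so a low level alone does not tell which tissue it came from.

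RefSeq start sites gave promoter windows for 6 of the 9 genes. The windows of Drd2 and Rgs9 are shown because Drd2 sets the order of the libraries below and Rgs9 is a gene whose favoured copy differed between libraries, as described below. Each window is the 250 bases before the RefSeq start on GRCm38.p6, 5′ to 3′ on the gene's strand. That of Drd2 is chr9:49340153-49340402 on the plus strand and that of Rgs9 is chr11:109298182-109298431 on the minus strand, with the genes (GENCODE M21, GRCm38) at chr9:49340627-49408177 and chr11:109225355-109298129.
Drd2: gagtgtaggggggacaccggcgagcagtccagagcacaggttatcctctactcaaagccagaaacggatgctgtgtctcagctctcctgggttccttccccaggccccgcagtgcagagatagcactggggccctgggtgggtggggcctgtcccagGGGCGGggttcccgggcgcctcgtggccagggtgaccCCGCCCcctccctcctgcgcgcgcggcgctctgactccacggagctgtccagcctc
Rgs9: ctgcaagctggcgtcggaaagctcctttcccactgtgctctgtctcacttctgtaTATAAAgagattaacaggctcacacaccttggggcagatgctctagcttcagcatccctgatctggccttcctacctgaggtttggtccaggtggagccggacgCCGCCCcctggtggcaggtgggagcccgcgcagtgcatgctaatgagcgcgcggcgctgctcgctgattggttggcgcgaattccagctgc
Capitals mark the motifs that were found on either strand out of 4 searched: the cyclic AMP response element TGACGTCA, its core TGACG, which overlaps the full element, the GC box GGGCGG and the TATA box TATAAA. Drd2 held 2 GC boxes and no other motif. Rgs9 held 1 GC box and 1 TATA box. These are matches of letters only, and the TATAAA of Rgs9 lies nearer the far end of the window than the start site. A GC box lies in 32.7% and a TATA box in 12.4% of 32851 windows of this length. Neither window held the cyclic AMP element (1.55% of windows) or its core (17.8%), which says only that these letters are not there. GC content was 68.8% for Drd2 and 59.6% for Rgs9, against a median of 52.4% over all windows.

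The libraries held 111.1 to 214.8 M counts (M, mega), of which 39.7 to 76.9 M could be assigned to an allele. Levels are CPM, the counts of a gene per M counts of its library, after TMM scaling, which corrects for the makeup of each library, and genes are compared with each other by TPM, which divides by gene length. Hippocampal markers were present in every library: summed CA1 markers (4 genes) ran from 228 to 751 CPM, CA3 and CA2 markers (4 genes) from 107 to 250 CPM and dentate granule markers (4 genes) from 184 to 525.5 CPM. By Drd2, 3 libraries stood apart. It was at 74.4 CPM in young replicate 2, 60.9 CPM in young replicate 6 and 32.0 CPM in old replicate 3, whereas the highest of the other 8 libraries, young replicate 1, had 6.98 CPM. The 2 libraries nearest to the 20 CPM line are thus old replicate 3 above it and young replicate 1 below it. The 3 libraries span both ages and both crosses. They are not a group of the study, so they are given as single values beside the range of the other 8, and the comparisons are given with and without them.

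Among the receptors, Adora2a and Drd2 had the widest spans of all 9 genes. Drd2 had 1.82, 3.37, 32.0, 2.48 and 2.27 CPM in old replicates 1 to 5. In young replicates 1 to 6 it had 6.98, 74.4, 1.13, 2.44, 1.80 and 60.9 CPM. Old and young mice overlapped across nearly the whole range, with 1 old and 2 young mice high. Adora2a, the adenosine receptor of the indirect pathway, had 1.04, 3.50, 48.6, 1.62 and 2.69 CPM in old replicates 1 to 5. In young replicates 1 to 6 it had 7.40, 110.4, 1.09, 2.43, 1.62 and 73.7 CPM, which is 106.0 times between the highest and lowest library. Drd2 spanned 65.6 times. Drd1, the receptor of the direct pathway, had 4.41, 6.63, 36.2, 4.86 and 11.5 CPM in the old and 11.5, 109.7, 6.86, 6.33, 5.94 and 59.1 CPM in the young mice, a span of 24.9 times. The same 3 libraries were highest for all 3 receptors, although Drd1 marks a different cell class from Drd2 and Adora2a.

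The peptide precursors followed. Penk, the precursor of enkephalin, had 27.9, 31.0, 145.3, 27.0 and 30.2 CPM in the old and 34.7, 309.3, 20.4, 21.2, 23.7 and 162.8 CPM in the young mice. Tac1, the precursor of substance P, was the scarcest of the 9 genes by median TPM, with 1.31, 1.63, 20.7, 1.38 and 2.78 CPM in the old and 4.06, 32.2, 1.94, 2.77, 1.65 and 17.6 CPM in the young mice. Penk spanned 15.2 times and Tac1 24.7 times. Outside the 3 libraries, Penk stayed between 20.4 and 34.7 CPM. Tac1 was the only member for which old replicate 3 was above young replicate 6.

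Among the signalling genes, Ppp1r1b, which encodes DARPP-32, was at 389 CPM in old replicate 3, 820.0 CPM in young replicate 6 and 1243 CPM in young replicate 2, against 54.9 to 115.7 CPM in the other 8 libraries. Rgs9, which shortens signalling by G proteins, was at 93.4, 174.7 and 292.6 CPM in those libraries, in the same order, against 8.72 to 28.9 CPM in the other 8. Pde10a, the phosphodiesterase, was at 271.9, 535.8 and 883.5 CPM, against 80.9 to 163.1 CPM. The sodium channel subunit Scn4b was at 168.7, 382.6 and 625.9 CPM, against 40.4 to 104.6 CPM. Pde10a and Scn4b had the smallest step across the line, 1.67 and 1.61 times between old replicate 3 and young replicate 1, and Adora2a the widest, 6.57 times. All 9 genes had their 3 highest values in these 3 libraries, a result that the choice of the line fixes for Drd2. Over all 30568 genes tested for age, 2.85% did so. The members were chosen with earlier results of these data known, so these shares are a description and no test. Young replicate 2 was highest for each of the 9 genes and young replicate 1 was highest of the other 8 libraries for each.

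**Figure D1:**
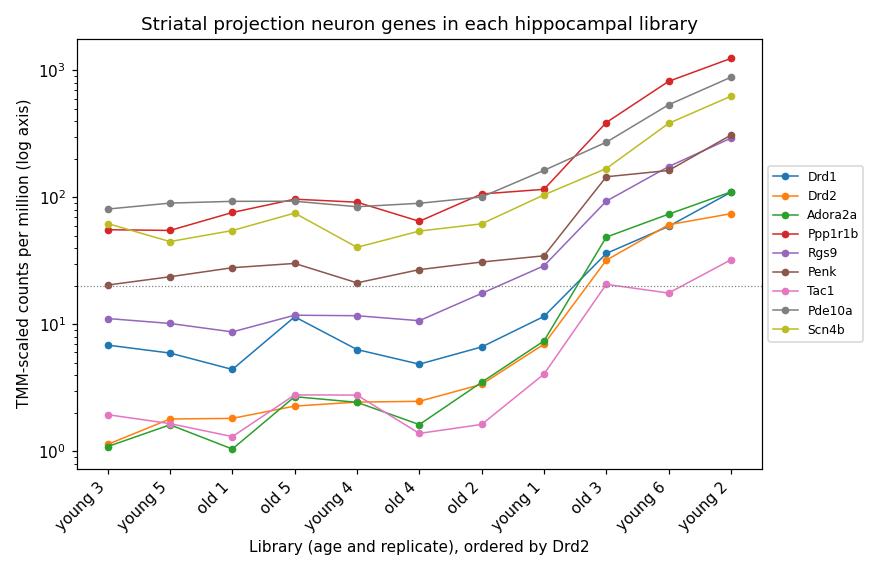
TMM-scaled CPM (log axis) of each of the 9 genes in the 11 libraries, 1 point per mouse, ordered from left to right by Drd2; lines join the points of a gene and the dotted line marks 20 CPM. All 9 lines climb to the same 3 libraries on the right, where Drd2 lies between 32.0 and 74.4 CPM, and young replicate 1, at 6.98 CPM of Drd2, is highest of the rest.

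By TPM, Ppp1r1b led in every one of the 11 libraries, followed by Penk, Scn4b and Pde10a in that order. In young replicate 2 these stood at 1117, 498, 330.5 and 180.9 TPM, and over the 8 libraries under 20 CPM of Drd2 their medians were 56.5, 36.6, 26.8 and 15.9 TPM. The lower 5 ranks were not stable. Drd1, Rgs9, Drd2, Adora2a and Tac1 had medians of 4.47, 4.11, 2.37, 1.58 and 1.35 TPM over all 11 libraries, and neighbours in that order changed places between libraries. Adora2a held rank 8 or 9 of the 9 in all 8 libraries under 20 CPM of Drd2 and rank 5 or 6 in the 3 above it. In bulk tissue, fewer cells of a type and less RNA per cell cannot be told apart.

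The widest gap in log2 Drd2, between young replicate 1 and old replicate 3, was 2.12 of a range of 5.52. Because the libraries thus fell into separate clusters, correlations with Drd2 were taken within the 8 libraries under 20 CPM and not over all 11. There, log2 levels of 5 of the other 8 genes followed Drd2 by Pearson's r with an exact two-sided permutation test and Benjamini-Hochberg adjustment over 8 pairs. Adora2a had r = 0.94 (rho = 0.83, exact p = 0.00117, adjusted p = 0.00933). Pde10a had r = 0.91 and Rgs9 r = 0.90, and Ppp1r1b had r = 0.80, each with an adjusted exact permutation p of 0.0125. Penk had r = 0.77 (adjusted exact permutation p = 0.0274). The direct-pathway genes Drd1 (r = 0.53) and Tac1 (r = 0.61) and the channel subunit Scn4b (r = 0.63) did not pass, with adjusted exact permutation p of 0.181, 0.12 and 0.12. By Spearman's rho, from 0.21 for Tac1 to 0.83 for Adora2a, none of the 8 passed, and the lowest adjusted exact permutation p was 0.0871. Without the 2 libraries farthest from the median of Drd2, 6 libraries were left and 0 of 8 passed. Of the 5 relations, r was then 0.92 for Rgs9, 0.82 for Adora2a, 0.69 for Ppp1r1b, 0.46 for Pde10a and 0.36 for Penk, so those of Pde10a and Penk were less than those over 8 libraries by over 1.5 times and that of Rgs9 was not lower. Without young replicate 1 alone 0 of 8 passed, with r of the 5 from 0.64 to 0.83. Without old replicate 2 alone 0 of 8 passed as well, while r of the 5 stayed between 0.75 and 0.94 and the adjusted exact permutation p lay between 0.0532 and 0.0667. Without young replicate 3 alone 2 of 8 passed. Among all 36 pairs of the 9 genes r was positive in these 8 libraries, from 0.26 (Penk and Tac1) to 0.94 (Drd2 and Adora2a), with a median of 0.71. Every point of these relations is 1 library, so genes of a pair share its dissection and depth. The share of all genes that follow Drd2 as closely in these 8 libraries was not computed, so these counts have no background beside them. The 9 genes were also chosen with earlier results of these data known. These p-values therefore describe the relations and are no independent test of them.

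Other genes were ordered by their likeness to the 9, as Pearson's r with the mean of the members' standardised log2 levels over all 11 libraries. These values describe a pattern that is set by the 3 high libraries and carry no test. Among the 14225 genes whose mean reached 1 CPM, 92 (0.647%) had r over 0.9. Among the closest named genes were Ptprv, Serpina9, Gpr6, Syndig1l, Ankk1, Slc35d3, Cd4, Sh3rf2 and Htr1d, with r from 0.997 to 0.9835. Gpr6 is an orphan receptor of indirect-pathway neurons and lay at 9.99 to 22.5 CPM in the 3 libraries against 0.409 to 2.12 CPM in the other 8. Ankk1, the gene next to Drd2 on the chromosome, lay at 2.07 to 5.97 CPM against 0.0361 to 0.819 CPM. Htr1d, a serotonin receptor, lay at 4.71 to 6.13 CPM against 0.166 to 0.948 CPM. The 5 least alike were Kcnj3, Adcy1, Ogfrl1, Camta1 and Stambpl1, with r from -0.92 to -0.93. Adcy1, a calmodulin-stimulated adenylyl cyclase of cortex and hippocampus, was at 1117 to 1263 CPM in the 3 libraries and 1644 to 2108 CPM in the other 8.

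Other striatal genes were high in the same libraries. Of 19 genes known from striatal projection neurons of both classes, 15 had their 3 highest values there. Adcy5, the main striatal adenylyl cyclase, was at 462 to 854 CPM against 130.3 to 208 CPM, while Arpp21, a cyclic AMP-regulated phosphoprotein, overlapped at 296 to 668 CPM against 165 to 345 CPM. Bcl11b, a transcription factor of striatum and hippocampus alike, overlapped at 241 to 331 CPM against 144 to 329.9 CPM. Of 6 further direct-pathway genes 5 did so (Pdyn, Chrm4, Isl1, Ebf1 and Slc35d3), among them Pdyn, the dynorphin precursor (15.6 to 34.4 CPM against 10.0 to 13.8 CPM), and Chrm4, a muscarinic receptor (21.8 to 27.5 CPM against 10.2 to 18.3 CPM). Eya1, a transcriptional coactivator, overlapped at 10.9 to 12.8 CPM against 9.70 to 20.2 CPM. Of 5 further indirect-pathway genes 3 did so (Gpr6, Gpr52 and Sp9), and Grik3, a kainate receptor subunit and the most abundant of them, overlapped at 115.3 to 124 CPM against 58.9 to 129 CPM. Cholinergic neurons are a minor class of the striatum and also lie in the septum, and 4 of 4 of their genes did so, with Slc5a7, the choline transporter, at 7.92 to 15.3 CPM against 0.473 to 4.56 CPM, Chat, which makes acetylcholine, at 3.47 to 7.89 CPM against 0.0361 to 1.17 CPM, and Slc18a3, the vesicular transporter, at 1.83 to 6.05 CPM against 0.0361 to 0.493 CPM.

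The partners of the members split. Of 5 receptors for opioid peptides and tachykinins, 4 were highest in the 3 libraries (Oprd1, Oprk1, Tacr1 and Tacr3), among them Oprd1, the delta opioid receptor that binds enkephalin (18.8 to 25.4 CPM against 12.4 to 18.6 CPM), and Tacr1, the receptor of substance P (8.65 to 11.2 CPM against 1.23 to 2.37 CPM). Oprm1, the mu opioid receptor, overlapped at 6.09 to 9.55 CPM against 3.02 to 8.46 CPM. Of 12 genes of cyclic AMP and DARPP-32 signalling, 5 did so (Adcy5, Pde1b, Gnal, Gng7 and Prkar2b), of which all but Prkar2b are also among the 19 striatal genes counted above, and the most abundant of the 12 did not: Ppp3ca, a calcineurin subunit, was at 1023 to 1557 CPM against 993 to 2000 CPM. Of 10 genes of dopamine synthesis, transport, breakdown and the other receptors, 1 did so, Drd3, at 0.417 to 1.71 CPM against 0.0437 to 0.318 CPM. Genes given in brackets here and among the other striatal genes were named after their values were seen, as was Drd3.

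Of the other lists, none of the genes of CA1, CA3 and CA2, dentate granule cells, neocortex, thalamus, septum, hypothalamus, choroid plexus, astrocytes, oligodendrocytes, microglia or immediate early genes had its 3 highest values in these libraries. Their summed levels still differed between libraries. CA3 and CA2 markers were at 107 to 168 CPM in the 3 libraries and 110.3 to 250 CPM in the other 8, and dentate granule markers at 184 to 266 CPM and 217 to 525.5 CPM. CA1 markers were at 339 to 494 CPM and 228 to 751 CPM. Over all 11 libraries the median r with the mean of the members was -0.38 for the CA1 list. It was -0.66 for the CA3 and CA2 list and -0.54 for the dentate granule list. How many listed genes had their lowest values in the 3 libraries was not counted. Choroid plexus markers (8 genes) were at 266 to 960 CPM and 19.7 to 1013 CPM, and were also high in old replicate 2 and young replicate 4, where Drd2 was at 3.37 and 2.44 CPM. Septal markers (4 genes) were at 49.9 to 85.0 CPM and 64.1 to 132 CPM. Thalamic markers (6 genes) were highest in young replicate 1, at 998 CPM, against 143 to 327 CPM in the other 10 libraries. Hypothalamic markers (6 genes) were highest in old replicate 3, at 21.7 CPM, against 2.68 to 7.22 CPM in the other 10. Oligodendrocyte markers (4 genes) were highest in young replicate 2, at 3874 CPM, against 1557 to 2726 CPM in the other 10. Counts were above 0 in every library for each listed gene. What part these markers' cells had in the members' levels was not tested.

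**Figure D2:**
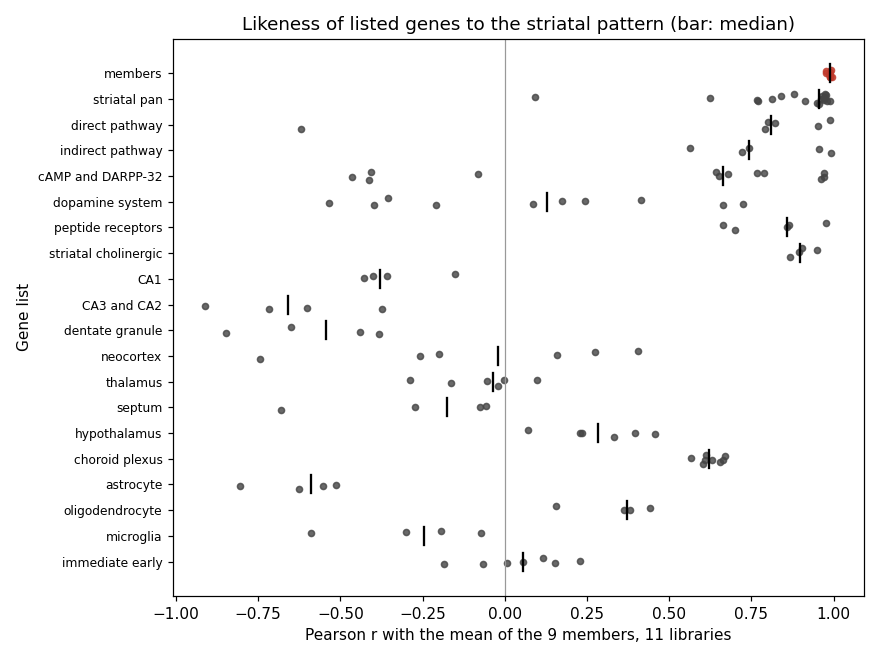
Pearson r over the 11 libraries between each listed gene's log2 level and the mean of the 9 members, 1 point per gene, by list; black bars are list medians and points are spread vertically for sight. The members lie at the right edge by construction, the list of genes shared by striatal projection neurons has a median of 0.95, and the CA3 and CA2 list has a median of -0.66.

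Age was compared by edgeR's quasi-likelihood test on counts with the cross as a term, and a gene is called where its Benjamini-Hochberg adjusted p over all genes is under 0.05. Of 30568 genes 104 were called (0.34%), and 0 of the 9 were. At an unadjusted p under 0.05 the count among the 9 was also 0, and by DESeq2's Wald test 0 of the 9 were called, with no adjusted p given for Penk and Adora2a. With 1 mouse left out, from 14 (without old replicate 4) to 244 genes (without young replicate 5) were called and 0 of the 9. Fitted log2 changes from young to old ran from -2.12 for Adora2a to -0.89 for Penk, with a median of -1.40 against -0.014 over all genes. Drd2 had 8.38 ± 13.2 CPM in the 5 old mice and 24.6 ± 33.7 CPM (SD) in the 6 young, with a log2 change of -1.97 (SE 1.20, edgeR adjusted p = 0.505). Rgs9 had 28.4 ± 36.5 CPM and 88.2 ± 118.9 CPM, with a log2 change of -1.79 (SE 0.965, edgeR adjusted p = 0.46). Among the young mice the SD was larger than the mean for each of the 9 genes. Within the 8 libraries under 20 CPM of Drd2 the log2 changes ran from -0.56 for Tac1 to 0.29 for Penk, and those of Penk, Ppp1r1b, Scn4b and Drd2 (0.29, 0.080, 0.047 and 0.027) had the opposite sign. Over these 8 libraries no member passed by edgeR either, with adjusted p from 0.766 to 0.994. Without young replicate 6 alone the change of Penk was 0.00015, and that of Drd2 -0.12. Without old replicate 3 alone the change of Drd2 was -3.23.

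The cross was compared in the same fit. With a CAST mother (n = 5) against a BL6 mother (n = 6), 63 genes were called (0.206%), and 0 of the 9 were, with none under an unadjusted edgeR p of 0.05 and none called by DESeq2, which again gave no adjusted p for Penk and Adora2a. Log2 differences ran from 0.73 for Scn4b to 1.89 for Adora2a, with a median of 1.16 against 0.0011 over all genes, and each had an edgeR adjusted p of 1.0. Tac1, with the lowest unadjusted edgeR p (0.0986), had 12.0 ± 13.9 CPM with a CAST mother (SD, n = 5) and 4.68 ± 6.37 CPM with a BL6 mother (SD, n = 6). Of the 3 high libraries 2 came from a CAST mother. Within the 8 libraries under 20 CPM the differences of Tac1, Ppp1r1b and Drd1 were -0.029, -0.093 and -0.013, and those of the other 6 lay between 0.22 and 0.77. Without young replicate 2 alone those of Scn4b and Ppp1r1b were -0.073 and -0.11. That of Adora2a was 0.27 without old replicate 3 and 3.93 without young replicate 6, and that of Drd2 was 0.24 and 3.37. Of 118 listed striatal, signalling and marker genes that were tested, none was called for age or for cross.

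**Figure D3:**
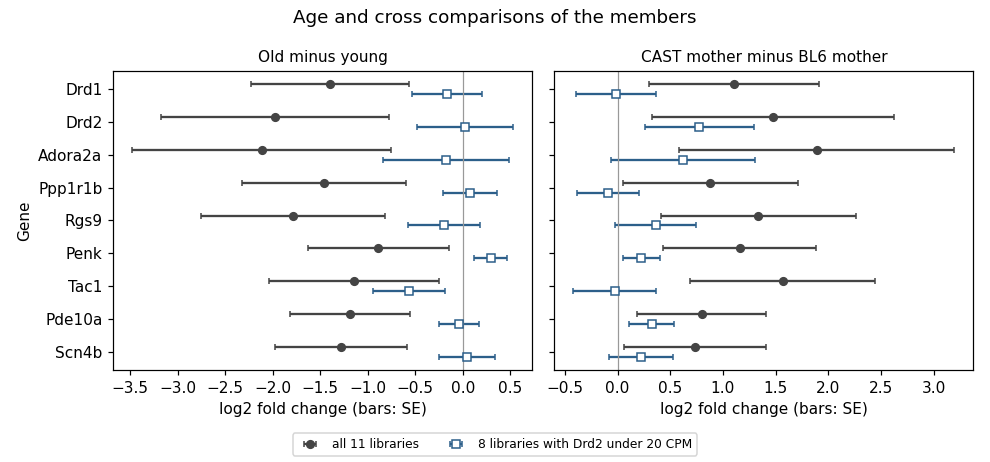
Fitted log2 differences of the 9 genes (horizontal axis; bars are SE) for old minus young mice on the left and CAST minus BL6 mother on the right, over all 11 libraries (filled circles) and over the 8 libraries under 20 CPM of Drd2 (open squares). Over 11 libraries all 9 age values lie below 0 and all 9 cross values above it, and over the 8 libraries they lie between -0.56 and 0.29 and between -0.093 and 0.77.

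The strain copies were compared next. Allelic counts were compared within mice by edgeR's quasi-likelihood test with terms for the mouse, the strain of the copy, the parent it came from, and both by age. Of 24108 autosomal genes 65.4% were called between the BL6 and CAST copies, and 8 of the 9 members were, a share to be read against that background. The BL6 copy gave more counts for Drd2 (log2 0.42, SE 0.065, adjusted p = 8.07e-06), Tac1 (0.27), Drd1 (0.16), Adora2a (0.14) and Ppp1r1b (0.098). It gave fewer for Scn4b (-0.20, SE 0.0448, adjusted p = 0.000425), Penk (-0.13) and Pde10a (-0.099). Rgs9 had 0.10 (SE 0.0501, edgeR adjusted p = 0.0783). The median over all genes was 0.075 towards BL6. With a TMM factor for each allele column on top of the mouse totals, about 15600 of the 24108 genes and 4 of the 9 were called. Tac1, Drd1, Adora2a and Ppp1r1b (0.19, 0.081, 0.062 and 0.021) were not. Without the terms by age about 15830 of the 24108 genes and 5 of the 9 were called, and Tac1, Adora2a and Penk were not. The call of Tac1 was lost without old replicate 2, 4 or 5 or young replicate 1, 3 or 4 (edgeR adjusted p up to 0.129), and that of Penk without old replicate 1, 2 or 4 or young replicate 3, 4 or 5 (up to 0.143). Adora2a was not called without old replicate 3 (adjusted p = 0.0689), nor Drd1 without old replicate 3 or 5 (up to 0.155). Rgs9 was called without old replicate 3, young replicate 2 or young replicate 6, with 0.17, 0.16 and 0.17. Drd2, Ppp1r1b, Pde10a and Scn4b stayed called with any single mouse left out and in the 8 libraries under 20 CPM. The fit of those 8 libraries called about 14020 genes and 7 of the 9.

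Drd2, with the largest log2 difference of the 9, gave a BL6 share of allelic counts of 56.5% in old replicate 3, 55.9% in young replicate 2 and 57.4% in young replicate 6. In the other 8 libraries, where 68 to 420 allelic counts were found, it lay between 48.2% and 65.2%. The 95% Wilson interval of young replicate 2 ran from 54.6% to 57.2% on 5486 counts and that of young replicate 3 from 47.0% to 69.7% on 68 counts. Such intervals cover counting error only, and those of old replicate 5 (56.96% to 72.65%) and young replicate 4 (42.5% to 56.94%) did not overlap. Ppp1r1b, the deepest, lay between 50.9% and 53.0% in all 11 libraries, and Pde10a between 47.3% and 49.6%, on the same side of 50% in 11 of 11 mice. Over all genes the BL6 share was 50.39% to 51.1%, and in old replicate 2 Ppp1r1b was at 50.88% against 50.8% for all genes. By their spans from start to end, both genes overlap others on the opposite strand. These are 1700003D09Rik for Ppp1r1b and Gm15425, Gm17087 and Gm15426 for Pde10a. Overlap of exons was not looked at, and the strand setting of the counting is not given in the sources used here. Whether these neighbours affect the counts is therefore not known.

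For Rgs9 the favoured copy differed between libraries. Its BL6 share was 48.0% in old replicate 3 (95% Wilson interval 46.8% to 49.1%, 7504 counts), 48.2% in young replicate 2 (47.6% to 48.9%, 21880 counts) and 46.8% in young replicate 6 (45.8% to 47.8%, 9425 counts). In the other 8 libraries it was 57.0%, 54.7%, 54.0% and 56.0% in old replicates 1, 2, 4 and 5 and 53.2%, 57.8%, 53.2% and 58.2% in young replicates 1, 3, 4 and 5. The highest of the 3 intervals ended at 49.1% and the lowest of the 8 began at 49.95%, so the intervals did not overlap. Over 15962 genes with at least 50 allelic counts in every library, 2.74% had a share in the 3 libraries outside the range of the other 8. Intervals lay apart as well for 0.0439% (7 genes). Of these, 1 gene (0.00626%) also lay on the other side of 50%, which was Rgs9. Intervals narrow as counts rise, so genes with few counts meet this rule less readily. Rgs9 had 607 to 1634 allelic counts in the 8 libraries and 7504 to 21880 in the 3. The share among genes of like depth was not computed. Within the 8 libraries alone Rgs9 favoured the BL6 copy (log2 0.30, SE 0.0539, edgeR adjusted p = 9.74e-05), where over 11 libraries it did not pass. The 8-library fit called about 14020 genes, so calls of members in it are to be read against that number.

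For Penk the shares lay the other way round. Its BL6 share was 51.7%, 55.0% and 53.1% in old replicate 3, young replicate 2 and young replicate 6. In old replicates 1, 2, 4 and 5 it was 42.7%, 42.6%, 44.9% and 43.1%, and in young replicates 1, 3, 4 and 5 it was 50.4%, 41.6%, 46.1% and 43.7%. The ranges did not overlap, while the interval of young replicate 1 (48.4% to 52.3%) reached that of old replicate 3 (50.8% to 52.7%). Young replicate 1, the highest of the 8 in Drd2, was also the highest of the 8 in this share. Over the 8 libraries the CAST copy of Penk gave more counts (log2 -0.31, SE 0.0432, edgeR adjusted p = 4.75e-06). Penk overlaps A830012C17Rik on the opposite strand, and the same limit holds for its counts.

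The shares of Scn4b and Tac1 overlapped in part. The BL6 share of Scn4b was 51.0%, 50.3% and 48.7% in old replicate 3, young replicate 2 and young replicate 6 and 41.0% to 49.9% in the other 8, with young replicates 1 (49.9%) and 3 (48.8%) reaching into the range of the 3. Tac1 had 53.0%, 46.4% and 46.8%, against 52.0% to 75.0% on 100 to 236 counts in the other 8. Within the 8 libraries Tac1 had a log2 difference of 0.74 towards BL6 (SE 0.154, edgeR adjusted p = 0.000397) and Scn4b -0.33 (SE 0.0497, edgeR adjusted p = 1.02e-05), both larger than over 11 libraries by over 1.5 times. Drd1 and Adora2a, with 0.15 and 0.16, did not pass there (edgeR adjusted p = 0.21 and 0.194), and their shares in the 3 libraries (50.5% to 52.9% and 50.1% to 51.7%) lay inside the range of the 8. Across all 9 genes and 8 libraries, the correlation of the BL6 share with log2 Drd2 passed for 0 of 9 by an exact two-sided permutation test after adjustment over 9. The nearest were Penk (r = 0.84, rho = 0.55) and Rgs9 (r = -0.75, rho = -0.81), with unadjusted exact p of 0.0186 and 0.015 and an adjusted exact p of 0.0836 each. Without the 2 libraries farthest from the median of Drd2 these were 0.041 and -0.71 over 6 libraries.

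**Figure D4:**
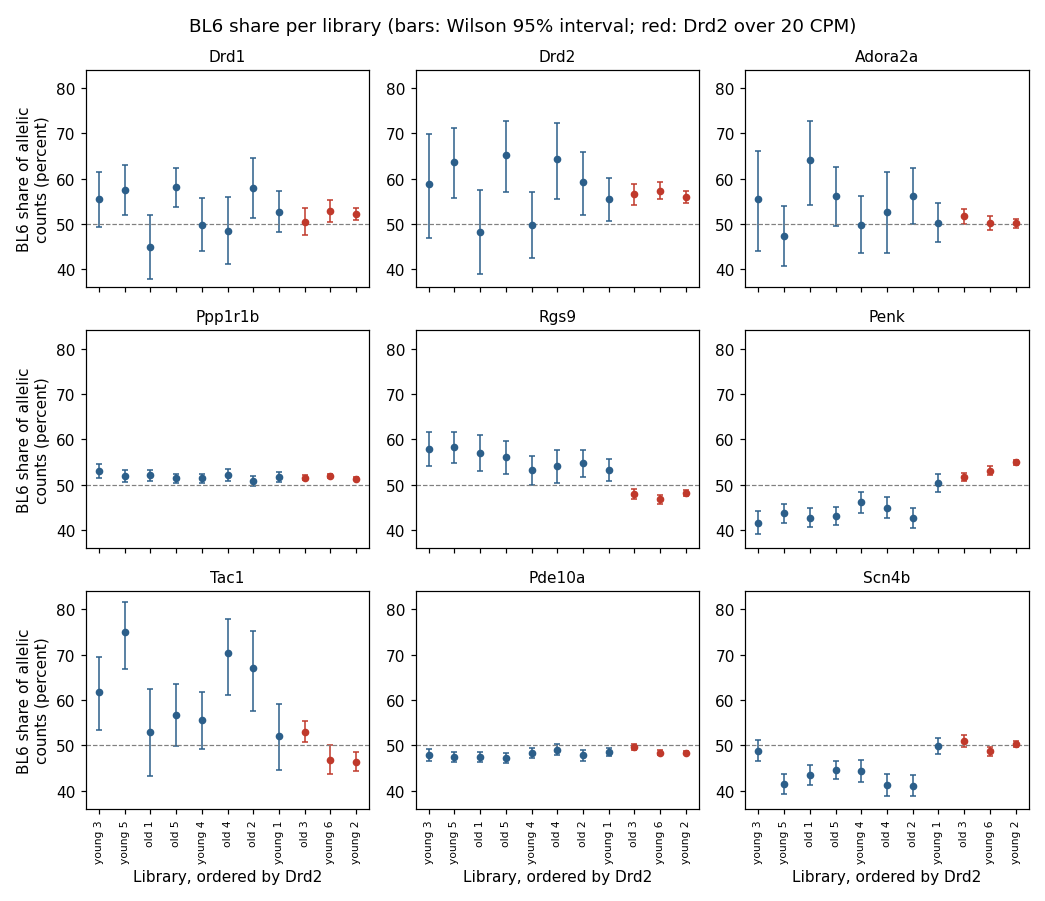
BL6 share of allelic counts in percent (vertical axis) for each gene in the 11 libraries ordered by Drd2, 1 point per mouse with its 95% Wilson interval; red points are the 3 libraries over 20 CPM of Drd2 and the dashed line is 50%. The red points of Rgs9 lie between 46.8% and 48.2% under blue points of 53.2% and more, and those of Penk lie between 51.7% and 55.0% above all blue points.

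Parent of origin left no call among the 9. Between the maternal and paternal copies 206 of 24108 genes were called by edgeR (0.854%), and 0 of the 9 were. Penk (log2 -0.13) and Adora2a (0.095) had an unadjusted edgeR p of 0.0231 and 0.0294, and the lowest adjusted p of the 9 was 0.936. In the 8 libraries under 20 CPM these were -0.076 and 0.11, and Penk was at -0.066 without old replicate 3 alone and -0.076 without young replicate 2 alone. The difference between the strain copies changed with age for 41 genes (0.17%) and 0 of the 9, and with 1 mouse left out for 20 (without old replicate 4) to 160 genes (without young replicate 5). Adora2a came nearest, with a log2 difference of 0.27 towards BL6 in old mice (SE 0.0811, edgeR adjusted p = 0.29, unadjusted 0.0034) and of 0.29 in the 8 libraries (edgeR adjusted p = 0.946). Its BL6 share was 56.1% ± 4.86 in the 5 old and 50.5% ± 2.66 (SD) in the 6 young mice. The difference between the parental copies changed with age for 15 genes (0.0622%) and 0 of the 9, and with 1 mouse left out for 10 (without old replicate 5) to 49 genes (without old replicate 2). Rgs9 (0.21) and Pde10a (-0.054) had an unadjusted edgeR p of 0.0469 and 0.0459. In the 8 libraries these were 0.055 and -0.046. Rgs9 was at 0.071 without young replicate 6 alone, 0.082 without old replicate 3 alone and 0.32 without young replicate 2 alone.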

How the data were processed

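RNA-seq tables of 11 hippocampal libraries were used, 1 per mouse, grouped by the labels into old (5) and young (6) and by the strain of the mother. Per the labels' protocols the libraries were polyadenylated, directional and read from both ends. Per the submitters' processing notes, reads were handled with bcl2fastq 2.20, Trim Galore 0.6.6, HISAT2 2.1.0, SAMtools 1.10 and Subread 2.0.0 (featureCounts) on GRCm38. The annotation release, strand setting and allele assignment are not given in the sources used here. As deposited by the authors, 3 tables hold whole-number counts per gene, counts per gene and allele, and TPM, a unit per gene length scaled to the same total in each library, whose making by the authors is not stated. Per the file headers an allele column is either cast or i4fb, and the latter was read as BL6. Positions are from GENCODE M21 and promoter windows from RefSeq. No pair of libraries agreed within sampling noise (chi-square per gene of at least 45.6).

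The members and gene lists were chosen with earlier results of these data known. Total counts were fitted with edgeR 4.0.16 in R 4.3.3 (TMM, filterByExpr, quasi-likelihood test, terms for mother and age). Autosomal genes averaging at least 10 allelic counts were fitted with edgeR with terms for mouse, strain of the copy, parent of the copy and both by age, and the library size of both columns was the mouse total. SE is the log2 difference over the square root of F. Correlations used log2(CPM + 0.5) and all 40320 orders of 8 libraries (scipy 1.17.1). A library was set apart by Drd2 over 20 CPM, and where the widest gap in log2 Drd2 was a large part of the range (here 0.384) no correlation over all 11 was tested, which for the BL6 share replaces a design over all 11. Named genes are all 9 members, the 10 most and 5 least alike named genes averaging at least 1 CPM, up to 3 most abundant genes of a list, and those marked as named after their values were seen; a few that this rule picks are not reported here. Both fits were checked on simulated data. The age fit recovered 47% of 2-fold and 83% of 4-fold changes, with 3 false calls. The strain-copy fit recovered 96.5% of 2-fold differences, with 8 false calls. Changed genes were drawn at random from all genes tested, so these rates are not those of the 9 members. Alternatives were DESeq2 1.42.0, other scalings, filters, pseudocounts and thresholds, and leaving out mice. Replicate numbers are names in accession order and pair no mice.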

Additional observations from a re-analysis of the deposited data

Results flagged for a closer look

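Within an age group, a sample was singled out where its gap to the nearest other sample, divided by the range of the group, passed Dixon's 95% critical value. Of 36 groups tested (9 genes, CPM and BL6 share, 2 ages) 12 had such a sample. The rate of about 1 in 20 groups by chance is no measure for this count. The 9 genes are not independent of each other and were chosen with earlier results of these data known. For CPM it was old replicate 3 as the highest of the old mice for each of the 9 genes, the old library that the Drd2 line had already set apart. Its receptor values were 36.2 CPM for Drd1, 32.0 CPM for Drd2 and 48.6 CPM for Adora2a. The signalling genes stood at 388.5 CPM (Ppp1r1b), 93.4 CPM (Rgs9) and 271.9 CPM (Pde10a). Penk was at 145.3 CPM, Tac1 at 20.65 CPM and Scn4b at 168.7 CPM. Among the young mice, where 2 libraries are high, no CPM value was singled out.

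For the BL6 share, old replicate 3 was the highest of the old mice for Penk at 51.7%. Young replicate 3 was the highest of the young mice for Adora2a at 55.4%, on 74 allelic counts, and for Ppp1r1b at 53.0%, on 4223 allelic counts. Their 95% Wilson intervals ran from 44.1% to 66.2% and from 51.5% to 54.5%.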

How the results depend on the processing

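Of the recomputed values 710 kept their direction and side of the threshold or moved little, 39 weakened past the threshold, 32 moved, 11 reversed and 6 passed the threshold newly. By DESeq2, 528 genes were called for age and 95 for the cross. In the 8 libraries under 20 CPM of Drd2, 15 genes were called for age, 30 for the cross and 22 for the strain copy by age. Between strain copies about 14020 genes and 7 of the 9 members were called in these libraries. There the age differences of Penk (0.29), Scn4b (0.047), Drd2 (0.027) and Ppp1r1b (0.080) and the cross differences of Tac1 (-0.029), Ppp1r1b (-0.093) and Drd1 (-0.013) reversed. With at least 50 allelic counts 9 genes were called for the parental copy by age. Of the 9 members 4 were called between strain copies with a TMM factor per allele column on top of the mouse totals and 5 without the terms by age. Over all genes about 15600 and 15830 were called in these settings. The cause of these shifts was not tested. The 8-library fits have fewer mice and also lack the libraries over 20 CPM of Drd2, and these cannot be told apart.

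With 1 mouse left out, 14 to 244 genes were called for age, 20 to 160 for the strain copy by age and 10 to 49 for the parental copy by age. Between strain copies 6 to 9 members were called, beside about 14580 to 15460 of all genes. Single members ran from -1.51 to 0.00015 (Penk, age), -0.073 to 1.57 (Scn4b, cross), -0.11 to 1.98 (Ppp1r1b, cross) and, as r with Drd2, -0.012 to 0.78 (Scn4b). Members that followed Drd2 numbered 0 to 5, and BL6 shares that did 0 to 1 (Penk without old replicate 2, Rgs9 without young replicate 4). A 10 CPM line leaves the same libraries apart, the 8-library correlations are the values reported, and correlations within the young mice were not run because 4 libraries remain. No paired analysis was possible because replicate numbers follow accession order and tie no mice together. Few counts limit the precision of the BL6 shares of Drd1, Drd2, Adora2a and Tac1, with as few as 68 allelic counts of Drd2 in a library.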

Other observations

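The members did not keep one ratio to each other across libraries. CPM of Drd1 over those of Drd2, which are not corrected for length, were 0.971 to 1.48 in the 3 libraries over 20 CPM of Drd2 and 1.65 to 6.06 in the other 8. Ratios to Drd2 were 12.2 to 16.7 and 16.6 to 49.1 for Ppp1r1b, 2.68 to 4.54 and 4.97 to 18.0 for Penk, and 8.50 to 11.9 and 23.4 to 71.4 for Pde10a. Adora2a over Drd2 was 1.21 to 1.52 in the 3 libraries and 0.574 to 1.19 in the other 8. Since Drd2 both set the line and stands in each ratio, these values are a description and were not tested.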
